A study of Rattus norvegicus with 15 samples.

Results

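Circular RNAs (circRNAs) of rat whole blood at 6 h after modelling of deep venous thrombosis were compared with those of sham animals. A circRNA was taken in when 3 or more of the 6 libraries (3 sham, 3 at 6 h) held a value above 0 for it, which left 9170 of the 43472 in the table. The rats were male Sprague-Dawley animals, an outbred laboratory strain, aged 6 to 8 weeks and weighing 250 to 300 g; the labels give sham blood as 0 h and do not describe how the thrombosis was modelled. Whole blood was taken into PAXgene tubes, and the whole series holds 15 libraries in 5 groups of 3 (sham, 1 h, 6 h, 12 h and 3 d). The titles of the 6 h and 12 h libraries carry a prefix ending in C, and those of sham, 1 h and 3 d a prefix ending in A&B. Prefix and time therefore cannot be told apart in the comparison of 6 h with sham. Whether each library of a group is a different rat is not in the labels, and p-values cover only the spread between these libraries, which may be technical.

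A circRNA is a closed loop made when a splice donor joins an acceptor that lies upstream of it in the same transcript. The loop has no free ends for exonucleases to attack, so circRNAs can outlast the linear transcripts of their genes, and they are plentiful in blood cells and platelets. In deep venous thrombosis a clot blocks a deep vein, and platelets, leukocytes and the coagulation cascade take part in building it. In bulk blood a change in the number of cells of a type and a change in RNA per cell cannot be told apart. The table numbers its circRNAs and pairs none with a gene, a coordinate or a sequence, so circRNAs are named here by number, and the blood label was not checked against marker genes. The authors' values are in SRPBM per the file's name, a unit that by its usual meaning is back-spliced reads divided by the mapped reads of the library, per 1e9.

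On that meaning of the unit, the step between values gave 88.6, 66.0 and 86.2 M mapped reads (M for 1e6) in sham replicates 1, 2 and 3, and 87.0, 82.9 and 82.1 M at 6 h. Most circRNAs rested on few back-spliced reads: the median listed member had 8, 20.5 and 9 reads in the sham libraries and 9, 10 and 11 at 6 h. No value above 0 stood for fewer than 2 reads. Zeros are written as listed at 0. Just outside the membership rule, 4297 circRNAs were listed in 2 of the 6 libraries, with a median listed value of 52.9 SRPBM. Just inside it, 2653 were listed in 3, with a median of 58.0 SRPBM. At the other end 1559 were listed in all 6, with a median of 428.6 SRPBM.

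Sham replicate 2 stood apart before any comparison. It listed 2186 of the 9170 circRNAs, against 6649 and 7752 in sham replicates 1 and 3 and 7841, 7241 and 8278 at 6 h. The 6 h libraries averaged 7787 ± 521 listed members (SD, n = 3) and the sham libraries 5529 ± 2950 (n = 3), a ratio of 1.41 with a two-sided exact permutation p = 0.2, adjusted p = 0.4 over 18 tests. Without sham replicate 2 the sham mean was 7200.0 ± 780 (n = 2) and the ratio 1.08 (exact permutation p = 0.4, adjusted p = 0.514). With 3 libraries against 3 the smallest p is 0.1, and with 2 against 3 it is 0.2, so no such test could pass. Ranked over the 9170 members, the 6 h libraries correlated with each other at Spearman rho 0.603 to 0.654, and with sham replicate 3 at 0.596 to 0.656. Sham replicates 1 and 3 correlated at 0.554. These correlations are across circRNAs, which are not independent replicates, and the low values share their read steps.

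Listing followed abundance, and the 9170 circRNAs were set into 6 classes by mean SRPBM over the 6 libraries. The lowest class, under 50 SRPBM, held 3101 circRNAs with a median of 5 reads when listed at 6 h. Of its values, 50.5%, 96.5% and 29.7% were listed at 0 in sham replicates 1, 2 and 3, and 29.2%, 40.7% and 19.9% at 6 h. In this class sham replicate 3 lay within the range of the 6 h libraries, and sham replicate 1 listed fewer members than any of them. In the class of 200 to 500 SRPBM (1176 circRNAs, median 29 reads at 6 h) sham replicates 1 and 3 listed 2.81% and 2.98% at 0 and the 6 h libraries 2.30%, 2.13% and 1.45%. Sham replicate 2 still listed 50.5% of that class at 0. Only among the 195 circRNAs of 2000 SRPBM and above, with a median of 309 reads at 6 h, did it list nearly all members, with 1.03% at 0. None of the 6 classes passed an exact permutation test of the share listed, with or without sham replicate 2 (p from 0.1 to 1, adjusted p 0.4 or above). With so few libraries none could pass. With all sham libraries the classes of 200 to 500 and 500 to 2000 SRPBM were at the smallest p these permutation tests can give, 0.1.

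**Figure D1:**
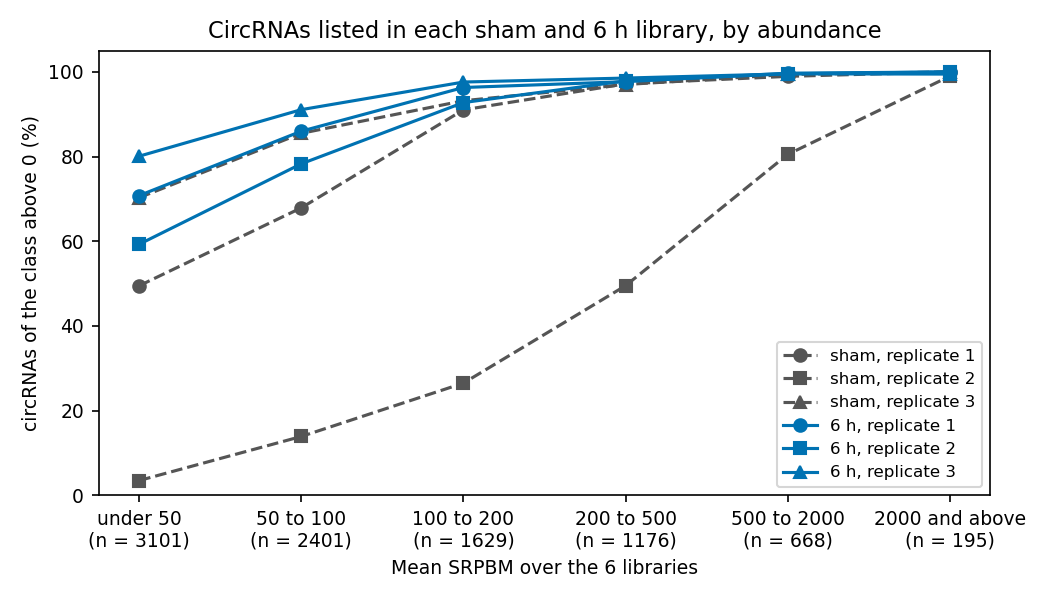
Percent of the tested circRNAs above 0 (vertical axis) in each sham library (dashed) and 6 h library (solid), for 6 classes of mean SRPBM over the 6 libraries (horizontal axis). Sham replicate 2 lies far below the other 5 libraries up to 2000 SRPBM, and the other 5 libraries come together from 200 SRPBM upward.

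Some circRNAs were listed in all libraries of a group and in none of the other. Of the 9170 members, 356 were listed in the 3 libraries at 6 h and at 0 in the 3 sham libraries, and 18 the other way round. They are part of the members without overlap between the groups. Of all members, 1342 (14.6%) lay above all 3 sham libraries at 6 h and 99 (1.08%) below them. Most of the 356 were scarce, with means at 6 h from 23.8 to 994.4 SRPBM and a median of 63.5, and 6 of them reached 200 SRPBM. In libraries outside the comparison these 356 were seen again in part: 174, 226 and 152 of them were listed in the 12 h libraries, 19, 142 and 209 in the 1 h libraries and 143, 119 and 149 in the 3 d libraries. Of all 9170 members, the 12 h libraries listed 76.73%, 82.25% and 70.58%. The 1 h libraries listed 20.4%, 72.78% and 82.25% of them, and the 3 d libraries 70.19%, 63.62% and 69.76%. The 356 were thus listed less often than members in general in each of these libraries. Of the 356, 23 were listed in none of those 9 libraries. The 18 that were listed in sham but not at 6 h had sham means from 56.8 to 176.7 SRPBM. Sham replicate 2 lists few circRNAs, so being listed there is itself a demand that few circRNAs meet. With sham replicates 1 and 3 alone the counts were 382 and 18. The 18 could not change: a circRNA at 0 in all 3 libraries at 6 h is a member only if all 3 sham libraries list it. The 3 libraries at 6 h can make a member alone, so 382 and 18 cannot be set against each other.

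The test for single circRNAs was limma on log2(SRPBM + 23.2), where the added 23.2 SRPBM is a typical lowest value above 0 of a library (the median of the 15). All 15 libraries entered 1 fit so that the groups shared an estimate of the spread. The pseudocount shrinks the log2 changes of low circRNAs. Of the 9170 circRNAs, limma called 0 at a Benjamini-Hochberg adjusted p under 0.05 (0% called). At an unadjusted p under 0.05 there were 979 (10.7%), of which 928 (10.1%) were higher and 51 (0.556%) lower at 6 h. Without sham replicate 2 limma again called 0 (0%), with 455 (4.96%) at an unadjusted p under 0.05, 385 higher (4.20%) and 70 lower (0.763%). The count at the unadjusted threshold moved with single libraries of both groups. Without sham replicate 1, 2 or 3 it was 969, 455 and 1983, and without 6 h replicate 1, 2 or 3 it was 823, 754 and 605. A low-value filter over all 15 libraries (above 0 in at least 3 of them), in place of the 6, gave 8 calls, all higher.

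The order of the libraries gave the same lean in direction. All 3 libraries at 6 h lay above all 3 sham libraries for 1342 circRNAs (14.6%) and below them for 99 (1.08%). Against sham replicates 1 and 3 alone they lay above for 1496 (16.3%) and below for 377 (4.11%). Here the rule for members leans the same way: 3 libraries at 6 h can make a member alone, and sham replicates 1 and 3 cannot. The 1496 held 382 members at 0 in both of those sham libraries, and the 377 held 18 at 0 in all libraries at 6 h. By class, the share lying above all 3 sham libraries was between 12.3% (2000 SRPBM and above) and 15.6% (500 to 2000 SRPBM), and in no class did the share lying below exceed 2.64%. The shares lying below carry the same demand of a listing in sham replicate 2.

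The median log2 change over the 9170 circRNAs was 0.77 with all 3 sham libraries and 0.36 without sham replicate 2. With all sham libraries it rose and fell across the classes: 0.60 under 50 SRPBM, 0.87 at 50 to 100, 1.08 at 100 to 200, 1.06 at 200 to 500, 0.62 at 500 to 2000 and 0.48 at 2000 and above. Without sham replicate 2 the classes were nearly level, between 0.32 (under 50) and 0.39 (50 to 100), with 0.36 in the top class. The hump in the middle classes stood where sham replicate 2 listed most members at 0 and the other libraries did not. When classes were set by the 9 libraries of the other groups, which the comparison does not use, the class medians with all sham libraries were 0.61, 0.80, 1.05, 1.10, 0.66 and 0.53, in the same order of classes.

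**Figure D2:**
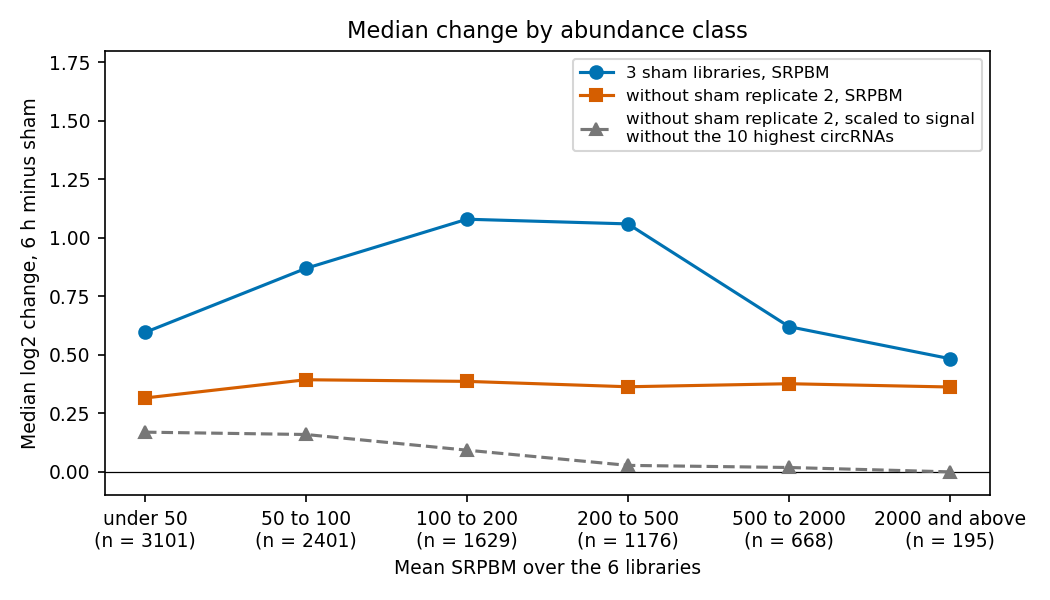
Median log2 change of 6 h minus sham (vertical axis) in 6 classes of mean SRPBM (horizontal axis), with all 3 sham libraries, without sham replicate 2, and without it after scaling each library to its circRNA signal outside the 10 most abundant circRNAs. The hump of 1.08 and 1.06 in the middle classes is seen with all sham libraries only, and the scaled medians run from 0.17 to 0.00.

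The remaining shift depended on scale. The circRNA signal outside the 10 most abundant circRNAs was 1.92, 1.70 and 2.63 M SRPBM in the sham libraries and 2.64, 2.62 and 3.52 M at 6 h. Sham replicate 3 lay level with the lower 2 of the 6 h libraries, and 6 h replicate 3 lay above all others. The means were 2.09 ± 0.49 M and 2.93 ± 0.52 M (SD, n = 3 each), a ratio of 1.40 (two-sided exact permutation p = 0.2, adjusted p = 0.4), and without sham replicate 2 the ratio was 1.29. After scaling to this signal, without sham replicate 2, the median log2 change over all members was 0.11, and it was 0.17 under 50 SRPBM, 0.09 at 100 to 200 and 0.00 at 2000 and above. The share of members with a positive change went from 68.7% to 56.1% over all classes and from 88.2% to 50.3% in the top class. The top class makes up much of the signal used to scale, so its centring near 0 is built in. Median-ratio scaling left 0.17 over all members and 0.10 in the top class.

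Values above 0 alone gave a like shift with no pseudocount. Among the 4087 circRNAs listed in the 5 libraries other than sham replicate 2, the median log2 ratio of 6 h to sham replicates 1 and 3 was 0.39, with quartiles at -0.02 and 0.81, and 3025 (74.0%) were higher. By library the medians of these ratios were 0.28, 0.29 and 0.66 at 6 h replicates 1, 2 and 3, so replicate 3 stood furthest from sham. In this set 691 circRNAs were more than 2-fold higher and 96 more than 2-fold lower. Listing in all 5 libraries leaves out circRNAs that fell to 0 in a library.

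At 6 h the spread between libraries fell with abundance. In sham with replicate 2 included it rose up to the class of 200 to 500 SRPBM and fell above it. Between sham replicates 1 and 3 alone it fell from class to class. The median SD of log2 values between the 6 h libraries was 0.94 under 50 SRPBM, 0.62 at 100 to 200 and 0.30 at 2000 and above. Between the 3 sham libraries it was 0.92 under 50 SRPBM, 1.30 at 50 to 100, 1.60 at 100 to 200, 1.77 at 200 to 500, 0.86 at 500 to 2000 and 0.71 at 2000 and above. The median SE of the log2 change was 0.79 under 50 SRPBM, 0.98, 0.99 and 0.95 in the next 3 classes, and 0.79 and 0.65 in the highest 2. The median absolute difference between sham replicates 1 and 3 was 1.29, 1.16, 0.92, 0.86, 0.81 and 0.79 from the lowest class to the highest. For pairs of 6 h libraries it was 1.04, 0.93, 0.70, 0.54, 0.43 and 0.34. Sham replicate 2 listed 73.5% of the class of 100 to 200 SRPBM and 50.5% of that of 200 to 500 at 0.

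The library 1 h replicate 1, which belongs to another group, listed 1871 of the 9170 circRNAs and adds to the shared spread. With both of these libraries left out, limma called 11 circRNAs (0.120%). All 11 were higher at 6 h (0.120%) and 0 lower (0%). The unadjusted threshold of 0.05 took in 716 (7.81%), split into 624 higher (6.80%) and 92 lower (1.00%). The 11 lay in the classes from 100 to 2000 SRPBM: 1 at 100 to 200, 6 at 200 to 500 and 4 at 500 to 2000. In the fit of all 15 libraries their adjusted p ran from 0.127 to 0.461, and without sham replicate 2 alone from 0.696 to 0.88. Their fitted log2 changes ran from 2.74 to 5.39, against a median of 0.36 over all members. The fitted changes of the 5 that sham replicates 1 and 3 list at 0 depend on the pseudocount. So do those of CBT15_circR_4859, CBT15_circR_7716 and CBT15_circR_40191, which either sham replicate 1 or 3 lists at 0. In the fit of all 15 libraries they were at 4.78, 4.02 and 4.26, and with a pseudocount of 1 SRPBM at 7.9, 7.08 and 7.28. The 11 calls were not firm: without 6 h replicate 1, 2 or 3 in turn limma called 1, 0 and 0, and 0 of the 11 kept their call. When the spread was not tied to abundance limma made 0 calls, and 706 circRNAs had an unadjusted p under 0.05. The 11 were picked for description after their values had been seen.

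**Figure D3:**
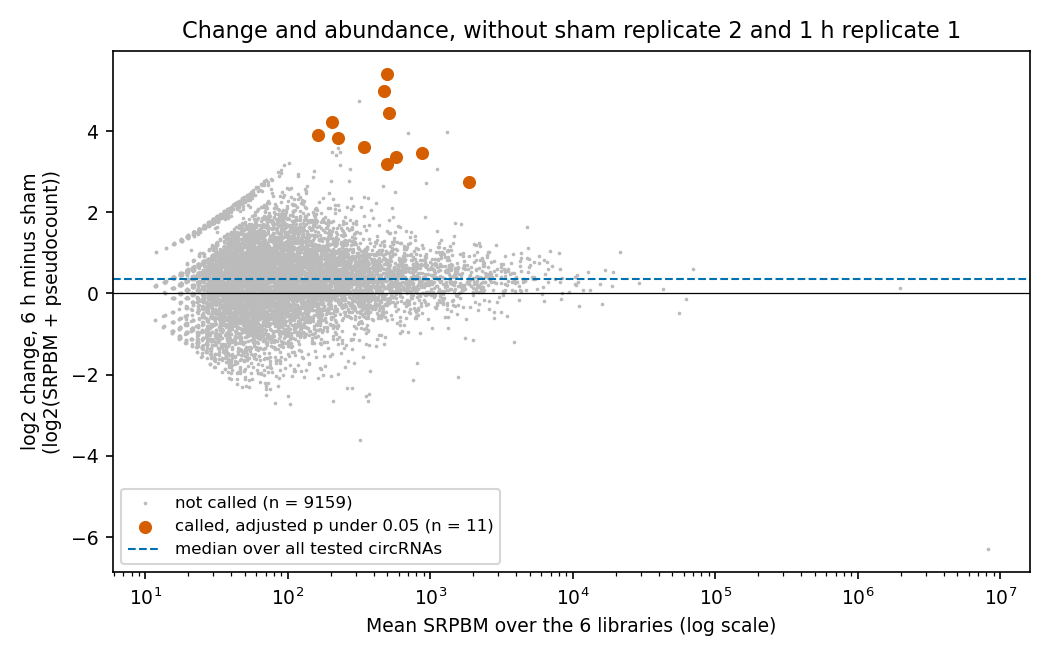
Fitted log2 change of 6 h minus sham without sham replicate 2 and 1 h replicate 1 (vertical axis) against mean SRPBM over the 6 libraries (horizontal axis, log scale), 1 point per tested circRNA. The 11 called circRNAs, at 2.74 to 5.39, lie above the dashed median of 0.36, and the spread narrows with abundance. The point at the far right is CBT15_circR_5191, listed at 0 in 6 h replicate 3.

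CBT15_circR_4859 had the smallest p of the 11. Sham replicates 1, 2 and 3 held 67.7, 0 and 0 SRPBM, and the 6 h libraries 747, 1291 and 975. The groups did not overlap: the lowest 6 h library was far above the only sham library that listed it. On the log2 scale the difference was 4.45 with an SE of 0.72 (limma, adjusted p = 0.00249). Its call held in 9 of 14 alternatives. Outside the comparison it lay at 738, 1790 and 747 SRPBM at 12 h, at 0, 332 and 450 at 1 h, and at 346, 0 and 173 at 3 d. Its 12 h libraries overlapped those of 6 h and lay above those of 1 h and 3 d.

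CBT15_circR_4854 and CBT15_circR_4860 have numbers near that one. For CBT15_circR_4854 the sham libraries held 113, 0 and 58.0 SRPBM and the 6 h libraries 1137, 833 and 853, a log2 difference of 3.18 with an SE of 0.60 (limma, adjusted p = 0.0137). For CBT15_circR_4860 they held 45.1, 348 and 104 SRPBM against 919, 1424 and 609, a log2 difference of 3.35 with an SE of 0.72 (limma, adjusted p = 0.0336). Both were higher in every 6 h library than in any sham library, and CBT15_circR_4860 came closest to overlap through sham replicate 2. The calls held in 7 and 6 of 14 alternatives.

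CBT15_circR_14518 had the highest mean at 6 h of the 11 and was listed in all 15 libraries. The sham libraries held 192, 833 and 916 SRPBM and the 6 h libraries 2091, 3259 and 3838. Sham replicate 1 was the lowest, and every 6 h library lay above the highest sham library. The log2 difference was 2.74 with an SE of 0.49 (limma, adjusted p = 0.00901), and the call held in 8 of 14 alternatives. At 12 h it lay at 3969, 3286 and 1190 SRPBM, at 1 h at 532, 1068 and 766, and at 3 d at 1421, 936 and 1486.

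CBT15_circR_6449, CBT15_circR_28409 and CBT15_circR_36565 were listed at 0 in all 3 sham libraries, so no fold is given. They became members through 6 h alone, so their direction was fixed by the rule for members. CBT15_circR_6449 held 414, 362 and 451 SRPBM at 6 h, a mean of 409 ± 44.6 (SD, n = 3), with an adjusted p of 0.0192 from limma. It was listed at 0 in the 3 libraries at 1 h, at 302, 566 and 249 SRPBM at 12 h, and at 48, 0 and 43 at 3 d. CBT15_circR_28409 held 310, 266 and 402 SRPBM at 6 h (limma, adjusted p = 0.0192) and 235, 363 and 433 at 12 h. It was lower at 1 h (0, 119 and 146 SRPBM) and 3 d (119, 0 and 101) in each library. CBT15_circR_36565 held 701, 869 and 1413 SRPBM at 6 h (limma, adjusted p = 0.0336) and 693, 646 and 725 at 12 h. Its 1 h libraries held 368, 0 and 3006 SRPBM and its 3 d libraries 1373, 0 and 0, so single libraries of those groups reached or passed the level of 6 h. Of the 14 alternatives, the call held in 7 for CBT15_circR_6449 and in 4 each for CBT15_circR_28409 and CBT15_circR_36565.

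For CBT15_circR_7716 the sham libraries held 102, 0 and 0 SRPBM and the 6 h libraries 655, 821 and 475, a log2 difference of 3.61 with an SE of 0.74 (limma, adjusted p = 0.0192). For CBT15_circR_40191 they held 0, 0 and 615 SRPBM against 770, 1062 and 2802, a log2 difference of 3.47 with an SE of 0.67 (limma, adjusted p = 0.0137). The groups of the second did not overlap, and the nearest values were 615 in sham replicate 3 and 770 in 6 h replicate 1. CBT15_circR_40191 also lay at 805, 2088 and 3119 SRPBM at 1 h and at 1696, 1505 and 1255 at 3 d. These overlapped the 6 h libraries, and 1 h replicate 3 lay above all of them. Calls held in 6 of 14 alternatives for CBT15_circR_7716 and in 4 for CBT15_circR_40191. The last 2, CBT15_circR_17409 and CBT15_circR_33507, had values of 606 and 379 SRPBM in sham replicate 2, the library left out of that fit, and in the fit of all 15 libraries their adjusted p from limma was 0.382 and 0.461. In that library both lay within the range of the 6 h libraries, 459 to 1057 SRPBM for the first and 205 to 439 for the second, while sham replicates 1 and 3 listed both at 0. Their calls held in 5 and 3 of 14 alternatives.

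**Figure D4:**
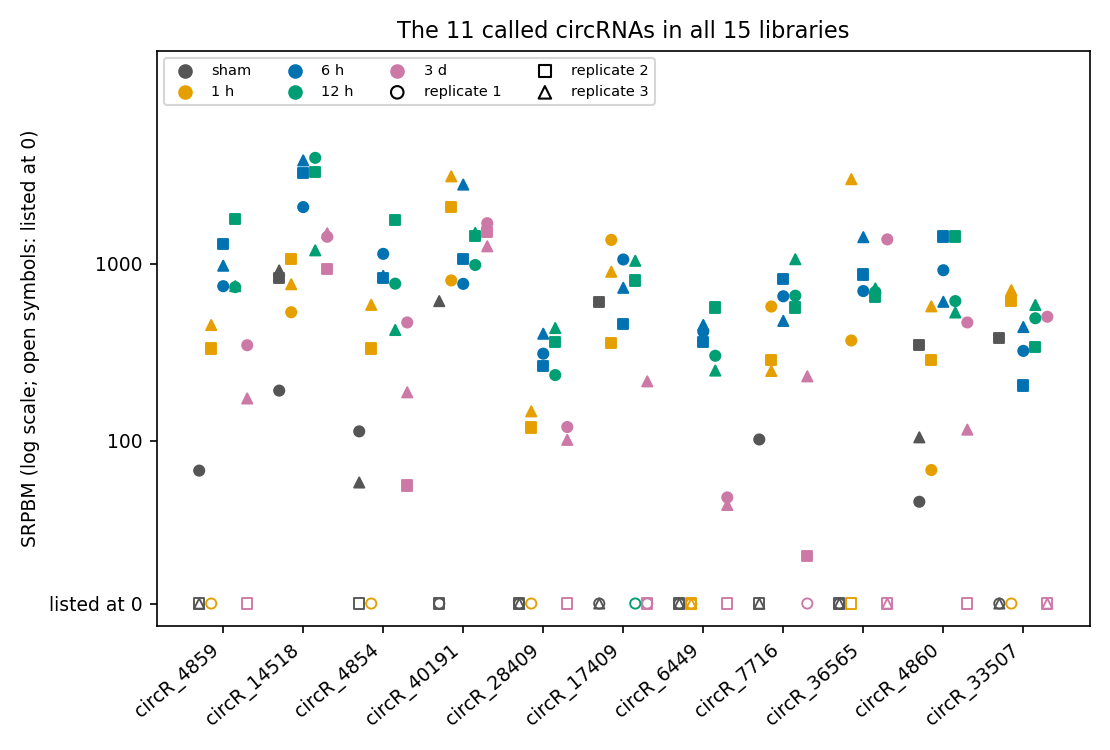
SRPBM (vertical axis, log scale, with values of 0 drawn at the foot as open symbols) of the 11 circRNAs called without sham replicate 2 and 1 h replicate 1, in all 15 libraries, ordered by p from left to right. Colours are the 5 groups and shapes the replicate numbers. For CBT15_circR_6449 the 6 h and 12 h libraries lie at 249 to 566 SRPBM and all others at 48 or below.

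Since 6 h and sham differ in title prefix as well as in time, the 11 were read in the 12 h libraries (prefix C) against the mean of 1 h and 3 d (prefix A&B), libraries whose means the comparison with sham does not use. The same libraries entered the shared spread by which the 11 were called, so their p-values here are not independent of that choice, and the levels are given as a description. Of the 11, 10 were higher at 12 h, with log2 changes from -0.31 to 3.49 and a median of 2.19. Over all 9170 members 69.8% were higher, with a median of 0.36. Without sham replicate 2 and 1 h replicate 1 the median of the 11 was 1.73 and that of all members 0.06. Over all 9170 members limma called 0 (0%) in this comparison with all libraries, with 319 higher (3.48%) and 34 lower (0.371%) at an unadjusted p under 0.05. Without those 2 libraries it again called 0 (0%), with 311 higher (3.39%) and 201 lower (2.19%). The exception in direction was CBT15_circR_40191, at -0.31. Between 12 h and 6 h, which share prefix C, the 11 differed by -1.42 to 0.55 on the log2 scale, with limma adjusted p of 0.999 or above. For 10 of the 11, then, both comparisons of prefix C with prefix A&B were positive, and the part of the prefix in this was not tested.

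In the lower direction limma called 0 with all libraries, without sham replicate 2, and without it and 1 h replicate 1. With sham replicate 3 left out as well as those 2, which leaves 1 sham library that is assumed to vary like the rest, it called 1 lower and 58 higher. The smallest p in that direction was that of CBT15_circR_27829, with 79.0, 227 and 116 SRPBM in the sham libraries and 0 in each 6 h library (limma, adjusted p = 0.334, and 0.88 without sham replicate 2). It became a member through sham alone, so its direction was fixed by the rule for members. It was also listed at 0 in all 3 libraries at 3 d, and held 0, 23.7 and 45.0 SRPBM at 1 h and 55.9, 22.7 and 32.5 at 12 h. Every sham library lay above every other library. In the class of 500 to 2000 SRPBM the lowest p belonged to CBT15_circR_24032, with 654, 2468 and 650 SRPBM in sham against 0, 338 and 402, a log2 difference of -2.77 with an SE of 0.90 (limma, adjusted p = 0.345). Its highest sham value came from replicate 2, and its change was -2.14 without that library. CBT15_circR_37630, of the class of 200 to 500 SRPBM, had 372, 651 and 128 SRPBM in sham against 0, 0 and 85.3 (limma, adjusted p = 0.345). In these 3 circRNAs the groups did not overlap, and sham replicate 2 was the highest library of the 6.

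Scarcer circRNAs were named 1 per direction and class. Under 50 SRPBM the smallest p in the higher direction was that of CBT15_circR_28691, with 0 in each sham library and 103, 48.3 and 73.1 SRPBM in the 6 h libraries (limma, adjusted p = 0.273). It was listed at 0 in all 9 other libraries. In the lower direction it was CBT15_circR_10544, with 22.6, 182 and 92.8 SRPBM in sham against 0 in each 6 h library (limma, adjusted p = 0.381). At 50 to 100 SRPBM CBT15_circR_30190 had 0 in each sham library against 91.9, 133 and 183 SRPBM (limma, adjusted p = 0.345). At 100 to 200 SRPBM CBT15_circR_5214 had 102, 485 and 81.2 SRPBM in sham against 46.0, 0 and 24.4 (limma, adjusted p = 0.4). The groups of these 4 did not overlap, and none of them passed. CBT15_circR_28691 and CBT15_circR_30190 became members through 6 h alone and CBT15_circR_10544 through sham alone. Their direction was thus fixed by the rule for members.

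The most abundant class had the smallest median SE, 0.65 on the log2 scale, and no call. Of the 195 circRNAs of 2000 SRPBM and above, 24 lay higher in all 3 libraries at 6 h than in all 3 sham libraries (12.3%) and 0 lay lower. CBT15_circR_30989 was the most abundant of the 24 and was picked after its values were seen. The sham libraries held 12478, 13143 and 15891 SRPBM and the 6 h libraries 21448, 32937 and 32275, a log2 difference of 1.04 with an SE of 0.48 (limma, adjusted p = 0.453). Sham replicate 2, which listed few circRNAs, lay between the other sham libraries here. At 1 h it lay at 6615, 13905 and 19682 SRPBM, at 12 h at 24722, 32437 and 16321, and at 3 d at 16576, 13599 and 14787. The highest 1 h library thus lay above the lowest 12 h library and below every 6 h library. CBT15_circR_17405 had the smallest p of the class in the higher direction. The sham libraries held 925, 575 and 4698 SRPBM and the 6 h libraries 3297, 7580 and 11343, a log2 difference of 2.25 with an SE of 0.74 (limma, adjusted p = 0.345), and the groups overlapped through sham replicate 3. In the lower direction CBT15_circR_6786 had 10684, 5693 and 1566 SRPBM in sham against 1287, 1859 and 2291, a log2 difference of -1.36 with an SE of 0.72 (limma, adjusted p = 0.490), again with overlap through sham replicate 3.

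The 4 circRNAs of highest mean over the 6 libraries made up 83.0%, 35.0% and 85.9% of the circRNA signal in the sham libraries and 79.4%, 87.4% and 55.6% at 6 h, and 2 of the 4 were listed in too few libraries to be tested. CBT15_circR_5191 held 9.15, 0 and 15.2 M SRPBM in sham against 9.66, 15.3 and 0 M, so each group had 1 library at 0 and the other 4 values overlapped. CBT15_circR_5185 was listed in all 6 libraries, with 1.54, 1.07 and 2.56 M in sham against 1.54, 2.45 and 2.76 M, a log2 difference of 0.43 with an SE of 0.35 (limma, adjusted p = 0.604). Of the 6 libraries only 6 h replicate 2 listed CBT15_circR_1124 (2.21 M) and only 6 h replicate 3 listed CBT15_circR_5184 (2.06 M). Both were also listed in libraries of 1 h and 12 h. The total circRNA signal was 12.9, 3.05 and 20.7 M in sham and 14.1, 22.9 and 8.66 M at 6 h, lowest in each group where CBT15_circR_5191 was listed at 0. The ratio of the means was 1.25 (two-sided exact permutation p = 0.7, adjusted p = 0.84), and without sham replicate 2 it was 0.907. CBT15_circR_19347 had 41068, 32690 and 81531 SRPBM in sham against 79703, 85343 and 99238, a log2 difference of 0.87 with an SE of 0.45 (limma, adjusted p = 0.490), with overlap through sham replicate 3. CBT15_circR_22135 had 85893, 92711 and 35842 SRPBM in sham against 38806, 46540 and 72568, a log2 difference of -0.37 with an SE of 0.82 (limma, adjusted p = 0.829), and sham replicate 3 was the lowest of the 6.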

How the data were processed

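The members and the rules for naming circRNAs were chosen with earlier results of these data known. The deposited table gives a normalized signal, SRPBM, which the authors made from find_circ calls (per the file's name). Bowtie 0.12.2 and the rat build Rnor_6.0 stand in the submitters' processing notes with no role. What the caller required of a circRNA is not stated there. In each library all values above 0 were whole multiples of a single step (100%, within 0.01 read), with 2 as the smallest multiple. No 2 libraries held identical values. Members (above 0 in 3 or more of the 6) went into limma 3.58.1 in R 4.3.3 (eBayes with a trend on mean abundance) on log2(SRPBM + 23.2), with Benjamini-Hochberg adjustment over all 9170. The fit was also run on simulated data, where zeros were drawn at the same rate in every library for a given circRNA. That run therefore does not cover the low listing of sham replicate 2 and 1 h replicate 1. Single values of libraries went into exact permutation tests (two-sided, a family of 18). In each comparison with sham and in each abundance class, the circRNA with the smallest p in each direction was named where none was called, and the 6 of highest mean. Messenger RNA profiles were not used here. Alternatives were other pseudocounts, filters, scalings, spreads and sets of libraries.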

Additional observations from a re-analysis of the deposited data

How the results depend on the processing

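The count of calls at 6 h against sham (0) was 6 with 10 times the pseudocount, 11 with no filter, 8 with the filter over 15 libraries, 3 scaled to total circRNA signal, 1 without the trend and 11 without sham replicate 2 and 1 h replicate 1, and it ran from 0 to 2 when 1 library was left out; every such call was higher at 6 h. Here no filter means above 0 in at least 1 of the 6 libraries, which left 27731 circRNAs. The 11 with no filter are only in part the 11 described above. CBT15_circR_4859, CBT15_circR_6449, CBT15_circR_36565 and CBT15_circR_40191 were in both sets. Those with no filter also held CBT15_circR_5185, whose log2 change was 0.43 (limma, adjusted p = 1.62e-25, against 0.604 with the filter). CBT15_circR_19347 was also among them (limma, adjusted p = 0.0481, against 0.49 with the filter). Without sham replicate 2 the count (0) was 9 in a fit of only the sham and 6 h libraries and 11 without 1 h replicate 1 too, and it ran from 0 to 1 with another library left out. The count of 11 went to 3 with a pseudocount of 1 SRPBM, 18 with the filter over 15 libraries, 2 scaled to signal without the 10 highest, 4 with median-ratio scaling, 0 without the trend and 17 with the replicate block, and it ran from 0 (without 6 h replicate 2 or 3) to 59 (without sham replicate 3) with another library left out; the fit of the 11 and these alternatives were added after seeing the data. Without sham replicate 3 the 59 held 58 higher and 1 lower. The cause was not tested. The 3 calls with a pseudocount of 1 SRPBM were other circRNAs, and 0 of the 11 kept their call there. The replicate numbers were not taken as pairs, since deviations of same-numbered libraries correlated at 0.0556, 0.0273 and 0.0736; the replicate block left 0 calls in the fits with 15 and 14 libraries, and each library correlated best with its own number, a hint from the data and not from the design. The count of 0 at 12 h against 1 h and 3 d was 0 in every alternative run. The median log2 change (0.77) was 2.03 when the pseudocount was 1 SRPBM, 0.19 when it was 10 times larger than 23.2 SRPBM, 0.44 with no filter, 0.26 for circRNAs in all 6 libraries, 0.46 with the filter over 15 libraries, 0.56 scaled to signal without the 10 highest and 0.36 without sham replicate 2 and 1 h replicate 1, and it ran from 0.36 to 1.14 with 1 library left out. Class medians with a pseudocount of 1 SRPBM were 1.92, 2.30, 2.53 and 2.16 in the 4 classes under 500 SRPBM, and without sham replicate 2 they were 0.32, 0.39, 0.39, 0.36 and 0.38 in the 5 classes under 2000. The ratio of total signal ran from 0.907 to 1.91 with 1 library left out, and was under 1 without 6 h replicate 2 too (0.933). Among named circRNAs the sign turned for 2 that were not called. CBT15_circR_5191 (0.03) was at -0.0619 scaled to total signal, -0.12 scaled without the 10 highest, -0.0885 with median-ratio scaling and -6.29 without sham replicate 2 and 1 h replicate 1, and ran from -6.29 to 6.36 with 1 library left out. CBT15_circR_5185 (0.43) was at -0.161 and -0.0661 in the first 2 scalings. Planned tests on reads (edgeR, DESeq2 and voom) were not run: although the values are whole multiples of a step, the smallest stands for 2 reads, and they were tested as the normalized signal deposited. Depth limits the classes under 200 SRPBM most, where the median value listed at 6 h stood for 5 to 14 reads.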

Other observations

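The changes of members with neighbouring running numbers were weakly correlated. Across pairs whose numbers differed by 1, the log2 changes of 6 h minus sham without sham replicate 2 had a Pearson r of 0.124 (2409 pairs), against 0.0484 at a distance of 5 (2110 pairs) and -0.0044 at a distance of 20 (2013 pairs). The pairs share their libraries, and what the numbering follows is not stated in the labels or the table. The stretches described next lie within 6 numbers of circRNAs called without sham replicate 2 and 1 h replicate 1, and were chosen after the calls were seen. Of 9 such stretches not all are described. In the 9, 22 of 26 members that were not called had a positive change without sham replicate 2. Over all members the share was 68.7%, but the stretches were picked around circRNAs called higher in the same libraries. The count is thus a description only. Among the 22, CBT15_circR_4850, CBT15_circR_4858, CBT15_circR_4865 and CBT15_circR_28410 became members through 6 h alone, so their direction was fixed by the rule for members. CBT15_circR_33502, CBT15_circR_33512, CBT15_circR_36559 and CBT15_circR_40185 went the other way, at -0.73, -0.81, -0.02 and -0.60.

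The stretch with 3 called circRNAs held 7 members. Of these, CBT15_circR_4850, CBT15_circR_4858 and CBT15_circR_4865 were listed at 0 in all 3 sham libraries and became members through 6 h alone, so their direction was fixed by the rule for members. CBT15_circR_4855, which was not called, had 0, 151 and 34.8 SRPBM in the sham libraries and 253, 519 and 439 in those of 6 h, a log2 difference of 3.48 with an SE of 0.81 (limma, adjusted p = 0.0756). CBT15_circR_4858 had 0 in each sham library and 103, 157 and 146 SRPBM in those of 6 h. CBT15_circR_4850 and CBT15_circR_4865 were listed at 0 in every library of sham, 1 h and 3 d, and at 6 h they held 34.5, 145 and 36.6 SRPBM and 46.0, 48.3 and 24.4 SRPBM. All 7 were highest in replicate 2 among the 12 h libraries. Over all 15 libraries the log2 values of CBT15_circR_4854 and CBT15_circR_4859 correlated at r = 0.957, those of CBT15_circR_4859 and CBT15_circR_4860 at 0.828, and those of CBT15_circR_4854 and CBT15_circR_4860 at 0.743. These points share libraries and their depth, and the values are given as a description.

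The stretch around CBT15_circR_17409 held 5 members. CBT15_circR_17410 had 621, 681 and 1102 SRPBM in the sham libraries and 1241, 2172 and 2461 in those of 6 h, with no overlap. CBT15_circR_17407 had 169, 0 and 464 SRPBM against 505, 833 and 889, also with no overlap. Neither was called (limma, adjusted p = 0.565 and 0.567 without sham replicate 2 and 1 h replicate 1). Host genes of these numbers are not analysed here.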
